A study of Glycine max with 24 samples.

Results

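WRKY transcription factors of soybean were followed through aphid infestation of leaves. The members are the genes whose array symbol, or a synonym of it in the RefSeq gene table, begins with WRKY, and they were read from probe sets that the array's annotation ties to a single gene. There were 53 such genes among the 6031 genes with a probe set of their own, and 104 probe sets measured them. Of these genes, 27 had 1 probe set and 26 had 2 or more, up to 5, and each gene is described by the probe set with the highest mean over the 24 arrays. All 53 were tested, with no filter on low signal. One gene, LOC100170685, was a member only through its synonyms WRKY11 and WRKY15a.

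WRKY factors are plant proteins named after a short conserved run of amino acids at the start of their DNA-binding domain, which holds a zinc finger and binds the W box in promoters. Many are switched on within hours of attack by microbes or sap-feeding insects, act downstream of MAP kinase cascades, and control genes of salicylate, jasmonate and phytoalexin pathways, some as activators and some as repressors. Others work in senescence and in the response to drought, salt or cold. Soybean WRKY numbers do not follow those of Arabidopsis, so roles known for an Arabidopsis gene of the same number do not carry over.

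The study set an aphid-resistant soybean line, LD05-16060, against an aphid-susceptible one, SD01-76R. Plants grew in a chamber at 25 °C with 16 h of light a day, and infested plants received 30 soybean aphids on the third trifoliate leaf at the V3 stage, while uninfested plants received none; all carried a net. The 8 groups of 3 arrays each were infested and uninfested resistant leaves at day 7, infested and uninfested resistant leaves at day 1, infested and uninfested susceptible leaves at day 7, and infested and uninfested susceptible leaves at day 1. Each line stands for 1 cultivar, so resistance cannot be told apart from any other difference between these lines. The labels do not say how many plants went into a sample.

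The leaf label was borne out by 4 of 7 leaf mesophyll markers, PSAD, RCA14, CAB3 and LOC547819 (a light-harvesting protein gene), which averaged above the 95th percentile of all values (11.16, on the log2 scale). One array stood apart before any result: uninfested susceptible day 1 replicate 1 had a mean correlation of 0.900 with the other arrays, the lowest of the 24 (the highest was 0.966), and the widest gap between the 3′ and 5′ ends of control transcripts, 2.01 on the log2 scale. That gap, a sign of RNA quality, ran from 0.810 upwards, and was 1.67 on infested resistant day 1 replicate 2. In uninfested susceptible leaves at day 1 the summed level of 8 phloem markers (log2) lay between 10.05 and 11.29, against 8.54 to 10.18 on the arrays of the other 7 groups. On uninfested susceptible day 1 replicate 1 the median of the 53 WRKY genes, each centred on its own mean, was -0.79, while the other 23 arrays ran from -0.25 to 0.46. The part of RNA quality and of phloem in the results that use this group was not tested beyond the fits given beside them.

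**Figure D1:**
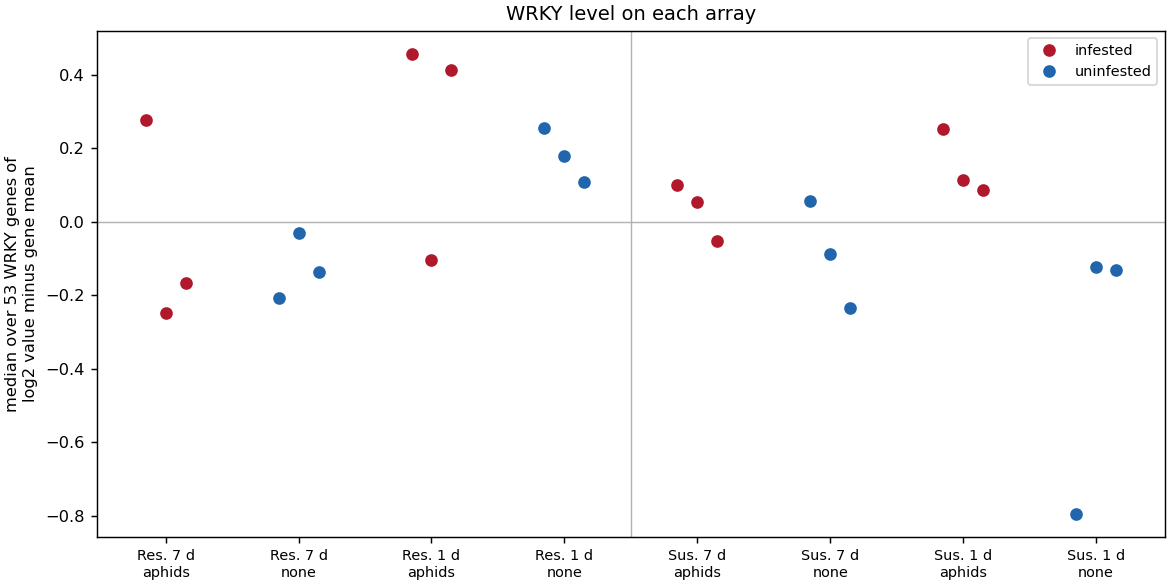
Median over the 53 WRKY genes of the log2 value minus the gene's own mean, 1 point per array, by group (Res. and Sus., resistant and susceptible; d, day; red infested, blue uninfested). Uninfested susceptible day 1 replicate 1 sits at -0.79, below every other array.

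WRKY genes varied more between the 8 groups than soybean probe sets did as a whole. The 2 sets were chosen unlike: each WRKY gene is its brightest probe set, while 28546 soybean probe sets have no annotated gene. The range from lowest to highest group mean had a median of 1.01 on the log2 scale for the 53 genes, against 0.51 for all 37593 soybean probe sets. It exceeded 1 for 27 of 53 genes, against 18.7% of all probe sets. WRKY30, WRKY63 and WRKY27 had the widest ranges, 3.01, 2.44 and 2.27, and WRKY59, WRKY29 and WRKY24 the narrowest, 0.17, 0.17 and 0.18. WRKY30 and WRKY63 had their lowest mean in uninfested susceptible leaves at day 1, pulled down by the array that stands apart. That array measured 5.73 for WRKY30, beside 8.56 and 8.58, and 5.99 for WRKY63, beside 9.47 and 9.26. Ranges and the group counts that follow were not repeated without it. The lowest group mean fell in uninfested susceptible leaves at day 1 for 25 genes (47.2%, against 27.6% of all probe sets) and in uninfested resistant leaves at day 7 for 14 genes (26.4%, against 11.2%). The highest fell in uninfested resistant leaves at day 1 for 15 genes (28.3%, against 13.2% of all probe sets) and in infested resistant leaves at day 1 for 12 (22.6%, against 7.52%). In uninfested susceptible leaves at day 1 it fell for 1 gene, against 25.8% of all probe sets. The map of group means shows both low groups, each of uninfested leaves. Every group mean lay above the median of all values (7.61) for 30 genes, while 5 genes, among them WRKY29 and WRKY64, stayed below the 25th percentile (6.19) throughout, where dim signal limits what a difference can show.

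**Figure D2:**
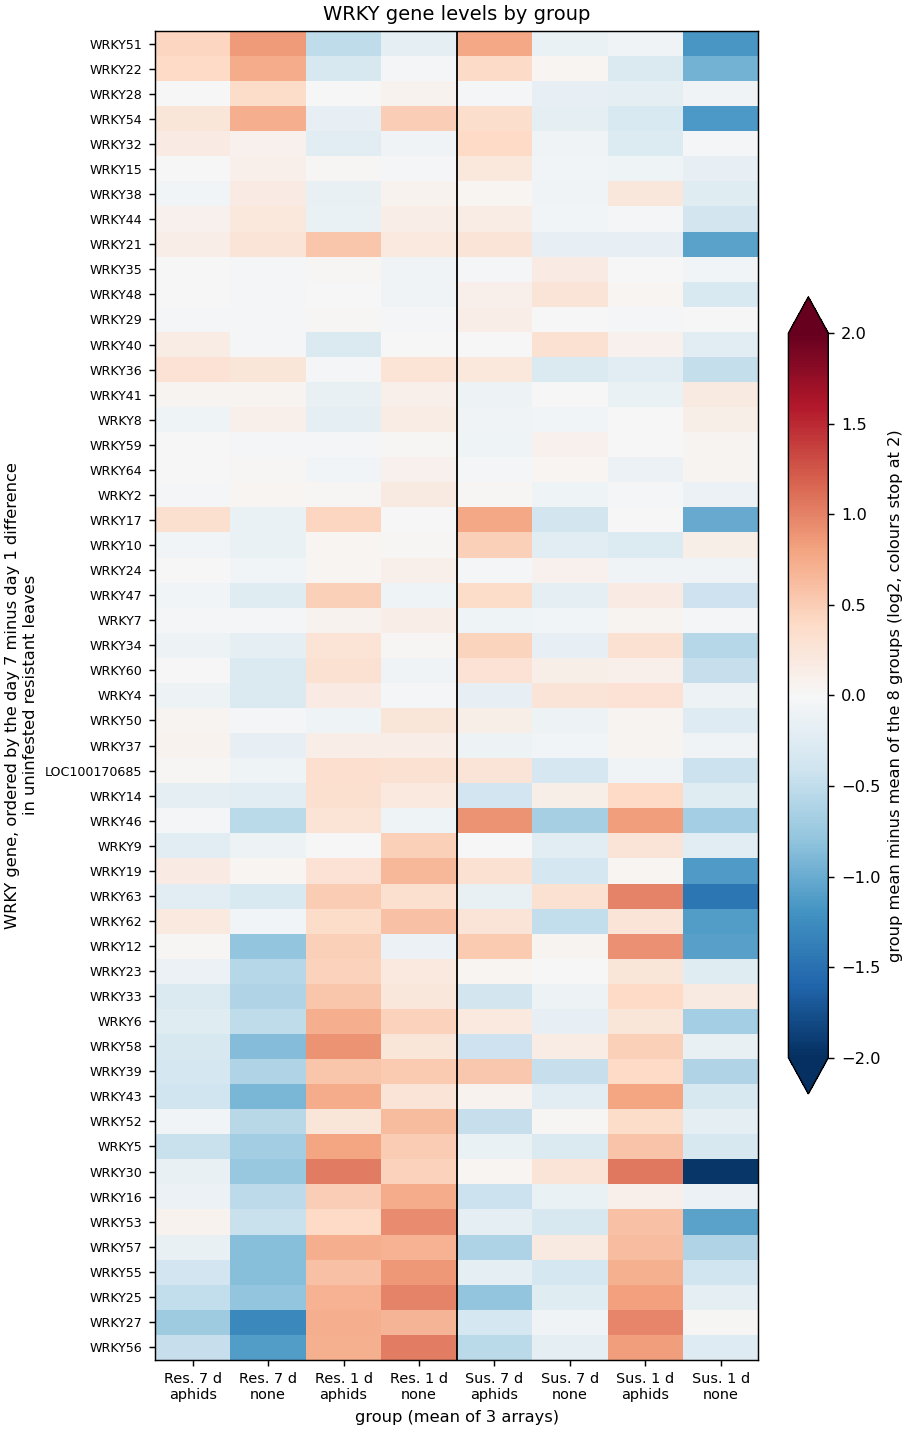
Group means of the 53 WRKY genes (mean of 3 arrays, log2), each row centred on the mean of its 8 groups, with rows ordered by the day 7 minus day 1 difference in uninfested resistant leaves. The right-hand column (uninfested susceptible leaves, day 1) holds the lowest mean of 25 genes, and the second column (uninfested resistant leaves, day 7) that of 14.

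The first question was what 1 day of aphids did in susceptible leaves. WRKY22, WRKY51 and WRKY30 passed the test and rose, so 3 of 53 were called higher and 0 lower, against 1.72% and 3.29% of all probe sets. The other genes did not pass, yet 44 of 53 differences lay above 0 with a median of 0.56 on the log2 scale, against a median of 0.00 (and 50.6% above 0) over all probe sets. The infested and uninfested arrays did not overlap for 27 genes, 25 of them higher with aphids (15.2% of all probe sets) and 2 lower (15.9%).

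WRKY22 measured 8.43, 8.0 and 8.36 (log2 intensity) on the infested arrays, against 7.49, 7.70 and 7.62 on the uninfested ones. Every infested value was above every uninfested one. The difference was 0.66 ± 0.15 (log2, SE; limma, Benjamini-Hochberg adjusted p = 0.0258, n = 3 arrays per group), or 1.58-fold. WRKY51 measured 8.59, 8.27 and 8.24 with aphids, against 7.53 and 7.63 on 2 uninfested arrays and 6.65 on the array that stands apart. Its difference was 1.10 ± 0.27 (adjusted p = 0.0321), 2.14-fold, again without overlap. WRKY30 measured 10.20, 10.88 and 10.82 with aphids, against 5.73, 8.56 and 8.58 without. The 3.01 ± 0.75 difference (adjusted p = 0.0326), 8.04-fold, thus rests on uninfested arrays that were themselves far apart, with an SD of 1.64. Both of its probe sets passed, at 2.84 and 3.01; of the probe sets of WRKY22 2 of 5 passed, of WRKY51 2 of 4, and of WRKY48, whose chosen probe set did not pass, 1 of 3.

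Without uninfested susceptible day 1 replicate 1 none of the 3 passed: WRKY22 kept a difference of 0.60 (adjusted p = 0.184), WRKY51 one of 0.79 (adjusted p = 0.242) and WRKY30 one of 2.06 (adjusted p = 0.243), and 9 of 37593 probe sets were then called in all. With the 3′ to 5′ gap as a covariate the differences were 0.52, 0.75 and 1.94, none called (adjusted p = 0.275, 0.336 and 0.343). Leaving out infested replicate 1 or 3 also left 0 calls, leaving out infested replicate 2 left 1, and leaving out uninfested replicate 2 gave 7. The median over the 53 genes was 0.35 in the fit lacking uninfested replicate 1 and 0.20 with the covariate, against 0.56 in the full fit.

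The largest differences that missed the threshold were those of WRKY63 (2.44 ± 0.89, adjusted p = 0.0987), WRKY12 (2.0 ± 0.58, adjusted p = 0.0513), WRKY53 (1.65 ± 0.56), WRKY46 (1.505 ± 0.52) and WRKY62 (1.38 ± 0.49). WRKY12 measured 10.10, 10.17 and 10.01 with aphids, against 6.52, 8.90 and 8.84 without. Its infested arrays lay close together, and the array that stands apart was far below the other uninfested ones. WRKY46 showed the same, at 9.68, 9.54 and 9.65 against 7.39, 8.52 and 8.45. The most negative differences were small, -0.39 ± 0.29 for WRKY10, -0.31 ± 0.20 for WRKY41 and -0.26 ± 0.19 for WRKY32, and none passed.

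**Figure D3:**
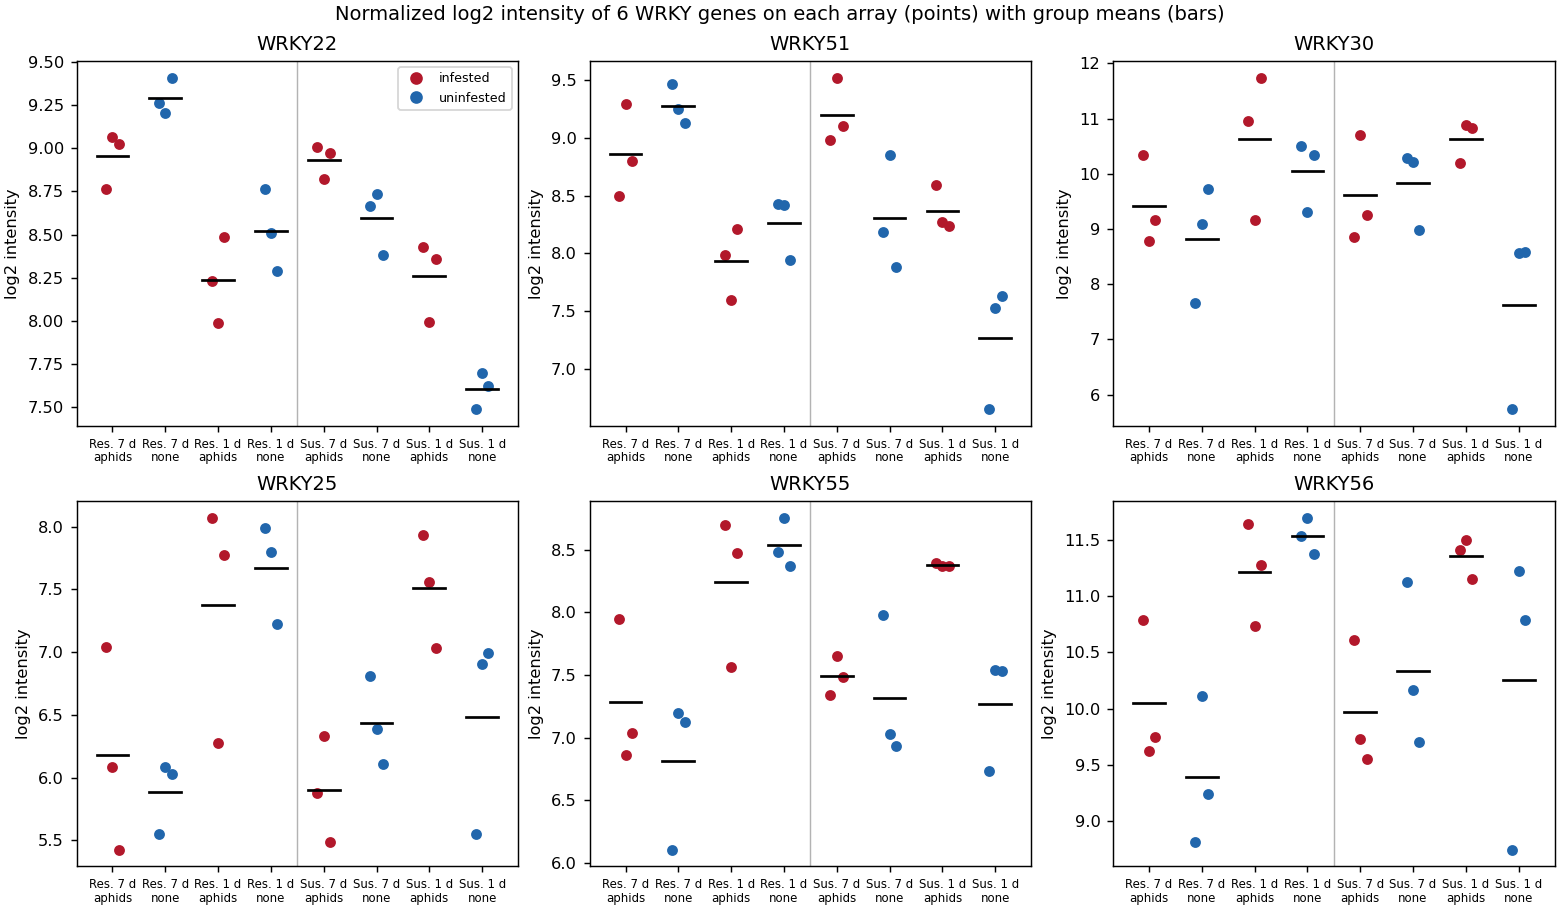
Normalized log2 intensity of 6 WRKY genes on each array (points, 3 per group) with the group mean (bar), red for infested and blue for uninfested leaves, resistant line left and susceptible line right. The group means of WRKY22 and WRKY51 are higher at day 7 than at day 1 in both lines, infested or not. In infested leaves WRKY51 was not called for this on its chosen probe set. The means of WRKY25, WRKY55 and WRKY56 are mostly higher at day 1. WRKY30 has its lowest value, 5.73, on uninfested susceptible day 1 replicate 1.

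After 7 days of aphids no WRKY gene passed on its chosen probe set in susceptible leaves (limma, 0 of 53), where 2.84% of all probe sets did. An unadjusted p under 0.05 was found for 10 of 53 genes and 17.6% of all probe sets. The median difference was 0.13, with 31 of 53 above 0, against -0.03 and 45.7% over all probe sets. WRKY46 had the largest difference, 1.56 ± 0.52 (adjusted p = 0.11), at 10.46, 9.70 and 8.92 with aphids against 8.43, 8.88 and 7.10 without. Its groups did not overlap, though only just. WRKY51 differed by 0.89 ± 0.27 (adjusted p = 0.0827), WRKY39 by 1.00 ± 0.31 (adjusted p = 0.0909) and WRKY17 by 1.13 ± 0.46 (adjusted p = 0.201). Over all probe sets of a gene some did pass: 2 of 4 for WRKY51, whose differences ran from 0.89 to 1.56, and 1 of 5 for WRKY22, from -0.05 to 0.82. WRKY30 measured 8.86, 10.71 and 9.26 with aphids against 10.29, 10.22 and 8.99 without, so its groups overlapped at this time. At the other end WRKY57 differed by -0.79 ± 0.45 and WRKY58 by -0.56 ± 0.40, neither called. The change of the aphid effect between the days was tested too, and 0 of 53 genes passed, as did 0.00% of all probe sets. An unadjusted p under 0.05 (limma) was found for 12 of 53 genes and 15.8% of all probe sets. For WRKY30 that change was -3.23 ± 1.06 (adjusted p = 0.182). These day 7 and day 1 effects share no array with each other.

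Resistant leaves gave no called WRKY gene on either day. At day 7, 0 of 53 passed in limma, with 0.00266% of all probe sets called. An unadjusted p under 0.05 was found for 1 gene, against 2.85% of all probe sets. The median was 0.10 with 38 of 53 above 0, against -0.02 and 45.4% over all probe sets. At day 1, 0 of 53 passed and 0.00% of all probe sets did. Again 1 gene had an unadjusted p under 0.05, against 7.62% of all probe sets. The median difference was 0.01, with 27 of 53 above 0, against -0.02 and 46.9% over all probe sets. WRKY22 measured 8.77, 9.06 and 9.03 with aphids at day 7, against 9.26, 9.20 and 9.41 without. All infested values were below all uninfested ones, a difference of -0.34 ± 0.15 (adjusted p = 1.0). At day 1 it measured 8.23, 7.99 and 8.48 with aphids against 8.76, 8.51 and 8.29 without, with overlap, and differed by -0.29 ± 0.15 (adjusted p = 0.681). WRKY30 measured 10.96, 9.17 and 11.74 in infested resistant leaves at day 1, against 10.50, 9.31 and 10.33 in uninfested ones, so the arrays within each group were further apart than the groups. The change of the aphid effect between the days was called for 0 of 53 genes in this line and for 0.00% of all probe sets. An unadjusted p under 0.05 (limma) was found for 2 of 53 genes and 2.745% of all probe sets.

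The difference between the lines in their aphid effect (resistant minus susceptible) was called for WRKY22 alone at day 1, 1 of 53 genes against 0.886% of all probe sets. Its aphid effect was -0.29 in resistant leaves and 0.66 in susceptible leaves, a difference of -0.94 ± 0.22 (limma, adjusted p = 0.0473). WRKY51 (-1.43 ± 0.39, adjusted p = 0.0607), WRKY54 (-1.51 ± 0.50, adjusted p = 0.0988) and WRKY53 (-2.19 ± 0.79, adjusted p = 0.123) did not pass. The median over the 53 genes was -0.56, with 9 above 0, against -0.03 and 47.45% over all probe sets. The WRKY22 call did not survive leaving out uninfested susceptible day 1 replicate 1, or any of 8 of the other 11 arrays it uses, and the count ran from 0 to 4 across these 12 fits. It was also lost in 6 of 9 other settings, and 1 of the 5 WRKY22 probe sets was called, with differences from -0.98 to -0.09. A probe set of WRKY48 other than the chosen one was called too (1 of 3, from -1.28 to -0.26). At day 7, 0 of 53 genes passed in limma, against 0.676% of all probe sets. An unadjusted p under 0.05 was found for 8 of 53 genes and 15.7% of all probe sets. WRKY51 (-1.31 ± 0.39, adjusted p = 0.106) and WRKY22 (-0.68 ± 0.22, adjusted p = 0.131) had the smallest p there.

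**Figure D4:**
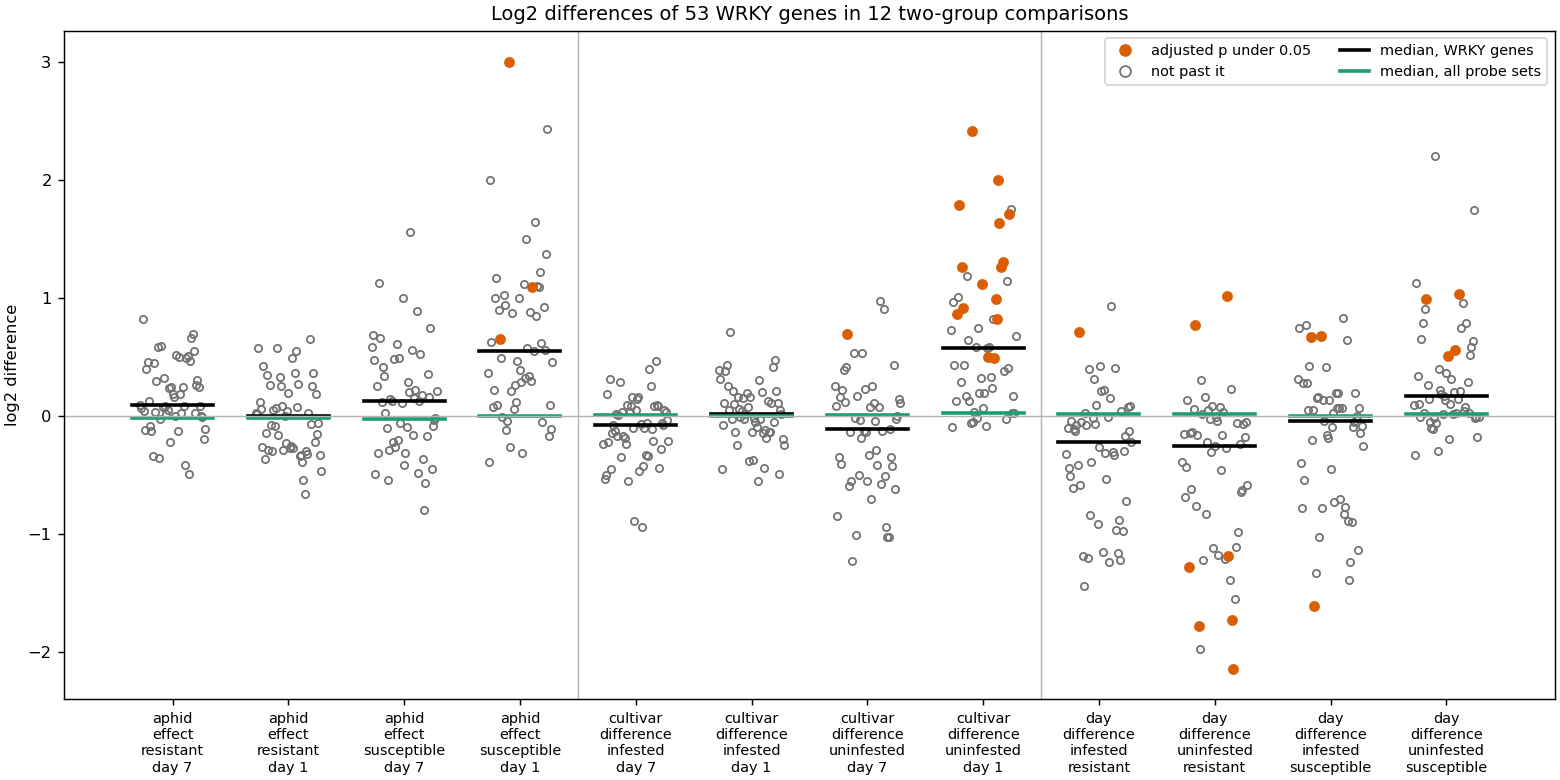
Log2 differences of the 53 WRKY genes in 12 two-group comparisons (1 point per gene; filled where the adjusted p is under 0.05), with the median of the WRKY genes in black and that of all 37593 soybean probe sets in green. The 15 filled points in the cultivar difference of uninfested leaves at day 1 all lie above 0, and the same comparison in infested leaves has 0.

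More WRKY genes were called between the lines in uninfested leaves at day 1 than in the other 3 line comparisons. There 15 of 53 WRKY genes were higher in resistant leaves and 0 lower, against 8.91% and 9.79% of all probe sets. The median difference (resistant minus susceptible) was 0.58, with 47 of 53 genes above 0, against 0.03 and 53.3% over all probe sets. The 3 resistant arrays lay above the 3 susceptible ones for 24 genes (21.0% of all probe sets) and below them for 0 (18.5%). The 15 genes were WRKY22, WRKY54, WRKY19, WRKY55, WRKY51, WRKY16, WRKY39, WRKY53, WRKY21, WRKY62, WRKY50, WRKY30, WRKY52, WRKY44 and WRKY57, with differences from 0.49 for WRKY50 to 2.42 for WRKY30. WRKY50 is one of the 5 dim genes below the 25th percentile in every group, so the size of its difference is not exact. Soybean factors named WRKY54 and WRKY21 have been reported to raise tolerance of salt and drought, and of cold, in transgenic Arabidopsis.

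WRKY22 measured 8.76, 8.51 and 8.29 in uninfested resistant leaves, against 7.49, 7.70 and 7.62 in uninfested susceptible leaves. The difference, 0.92 ± 0.15 (limma, adjusted p = 0.00114), was called on 4 of its 5 probe sets. WRKY54 measured 9.07, 8.89 and 8.28 in resistant leaves, against 6.29, 7.47 and 7.56 in susceptible leaves, a difference of 1.64 ± 0.36 (adjusted p = 0.00463). WRKY19 measured 10.33, 10.05 and 9.20, against 7.39, 8.62 and 8.18, a difference of 1.80 ± 0.41 (adjusted p = 0.00624), and all 3 of its probe sets passed. In each the resistant arrays were all above the susceptible ones, and for WRKY54 and WRKY19 the lowest value came from the array that stands apart. WRKY62 shares an array cluster number with WRKY19, and WRKY52 with WRKY16, so signal from one may reach the other, and these pairs do not count as separate evidence. WRKY62 and WRKY21 measured as low as 5.28 and 5.25 in susceptible leaves, at the 5th percentile of all values (5.28), and so are not shown to be above background there; the sizes of their differences, 1.71 and 1.27, are not exact.

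Without uninfested susceptible day 1 replicate 1, WRKY22 (0.86, adjusted p = 0.0112) and WRKY54 (1.23, adjusted p = 0.0437) remained called, and the other 13 were not, with adjusted p from 0.0539 for WRKY19 to 0.308 for WRKY57. All 15 kept a positive difference in that fit, and 2240 probe sets were called in all. Leaving out uninfested resistant day 1 replicate 1 or 2 left 4 calls each. With the 3′ to 5′ covariate only WRKY22 passed (0.74, adjusted p = 0.0419), among 541 probe sets called. Of the 8 phloem markers 6 were lower in resistant than in susceptible leaves in this comparison and 0 higher, with a median difference of -1.11. Over all probe sets 9.79% were lower and 8.91% higher. The part of the phloem markers in the WRKY differences was not tested.

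Infested leaves of the same day, compared between the lines after the data had been seen, gave 0 of 53 called genes (limma), against 0.138% of all probe sets. An unadjusted p under 0.05 was found for 2 genes, against 5.64% of all probe sets. The median difference was 0.02. Of the 15 genes called in uninfested leaves 7 had the same sign in infested leaves, a comparison that uses none of the same arrays, against 54.3% of all probe sets called in uninfested leaves. For WRKY54 infested resistant leaves measured 8.37, 7.01 and 8.87, against 8.03, 7.71 and 8.12 in infested susceptible leaves, with overlap.

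At day 7 WRKY22 alone was called higher, by the chosen probe sets, in uninfested resistant than in uninfested susceptible leaves, 1 of 53 genes against 1.36% of all probe sets. It measured 9.26, 9.20 and 9.41 in resistant leaves, against 8.67, 8.73 and 8.38 in susceptible leaves, a difference of 0.70 ± 0.15 (limma, adjusted p = 0.0221). The groups were well apart, but the call did not hold without resistant replicate 1 or 3 or susceptible replicate 1 or 3. No WRKY gene was lower (0 of 53, against 0.918%). The median was -0.11, with 22 of 53 above 0, against 0.01 and 51.2% over all probe sets. WRKY51 measured 9.46, 9.25 and 9.13, against 8.18, 8.85 and 7.88, a difference of 0.97 ± 0.27 (adjusted p = 0.0636), and 2 of its 4 probe sets were called higher, with differences from 0.97 to 1.46; of the 5 probe sets of WRKY22 2 were called. At the other end WRKY27, a soybean factor reported to act in drought and salt tolerance, measured 7.92, 9.58 and 8.61 in resistant leaves, against 10.47, 10.31 and 9.0 in susceptible leaves, a difference of -1.22 ± 0.57 (adjusted p = 0.27). In infested leaves of day 7, 0 of 53 genes differed between the lines (limma), against 0.160% of all probe sets. An unadjusted p under 0.05 was found for 1 gene, against 5.39% of all probe sets. That gene was WRKY39, at -0.89 ± 0.31 (limma, adjusted p = 0.62).

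Between day 1 and day 7 a few WRKY genes of uninfested resistant leaves were called in each direction. WRKY22 and WRKY51 were higher at day 7, and WRKY16, WRKY55, WRKY52, WRKY56 and WRKY25 were lower, so 7 of 53 were called, against 3.91% of all probe sets. With no scaling 0 were higher and 8 lower, neither WRKY22 nor WRKY51 passed, and the median of all probe sets shifted by -0.12. The median difference (day 7 minus day 1) was -0.25, with 12 of 53 above 0, against 0.02 and 52.6% over all probe sets. The day 7 arrays lay below the day 1 arrays for 15 genes (11.1% of all probe sets) and above them for 2 (12.7%). In the same leaves the summed level of 7 leaf mesophyll markers (log2) was 15.76 ± 0.12 at day 7 and 16.24 ± 0.04 at day 1, with 1 called lower and 0 higher, and that of 44 seed markers 14.81 ± 0.77 at day 7 and 13.82 ± 0.19 at day 1, with 4 called higher and 0 lower (SD, n = 3 each). Their part in the WRKY differences was not tested.

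WRKY56 fell most. It measured 8.81, 10.12 and 9.24 at day 7, against 11.53, 11.70 and 11.37 at day 1, a difference of -2.14 ± 0.51 (limma, adjusted p = 0.0215), and 4 of its 5 probe sets passed. WRKY55 measured 6.11, 7.20 and 7.12 at day 7, against 8.48, 8.75 and 8.37 at day 1, a difference of -1.73 ± 0.35 (adjusted p = 0.00858). Both were tight at day 1 and spread at day 7. WRKY25 measured 5.55, 6.08 and 6.03 at day 7, against 7.99, 7.79 and 7.22 at day 1 (-1.78 ± 0.46, adjusted p = 0.033). Its day 7 values lay under the 25th percentile of all values (6.19), so the size of that difference is not exact. The WRKY25 call held in 1 of 6 fits that left out 1 array. WRKY16 measured 7.96, 8.65 and 8.61, against 9.57, 9.87 and 9.61 (-1.27 ± 0.24, adjusted p = 0.00576), and WRKY52, of the same array cluster, differed by -1.18 ± 0.27 (adjusted p = 0.0165). WRKY51 measured 9.46, 9.25 and 9.13 at day 7, against 8.43, 8.42 and 7.94 at day 1 (1.02 ± 0.27, adjusted p = 0.0411), and 3 of its 4 probe sets passed, but its call was lost in all 6 fits that left out 1 array (adjusted p up to 0.167). In none of these did the days overlap. Without uninfested resistant day 7 replicate 1, whose mean correlation with the other arrays was 0.933, only WRKY22 stayed called (0.78, adjusted p = 0.0381); WRKY16 was then at -1.05 (adjusted p = 0.0513) and WRKY56 at -1.85 (adjusted p = 0.124). The count was 4 without day 1 replicate 1 and 2 without day 1 replicate 2.

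In uninfested susceptible leaves WRKY22 (0.99 ± 0.15, limma, adjusted p = 0.00283), WRKY51 (1.04 ± 0.27, adjusted p = 0.0229), WRKY48 (0.57 ± 0.15, adjusted p = 0.0268) and WRKY40 (0.51 ± 0.15, adjusted p = 0.0339) were higher at day 7, 4 of 53 against 5.22% of all probe sets, and 0 were lower, against 5.28%. WRKY48 measured 8.94, 8.95 and 9.01 at day 7, against 8.48, 8.31 and 8.42 at day 1. These arrays were tight and apart, yet WRKY48 did not pass without any 1 of the 6. WRKY40 averaged 5.82 at day 1, under the 25th percentile of all values (6.19), so the size of its difference is not exact. WRKY56 measured 11.12, 10.16 and 9.71 at day 7, against 8.75, 11.22 and 10.79 at day 1, with overlap, and its lowest day 1 value came from the array that stands apart. Whether the day difference differed between the lines was not tested. Without that array, or without uninfested susceptible day 7 replicate 1 or 2, 1 gene was called.

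**Figure D5:**
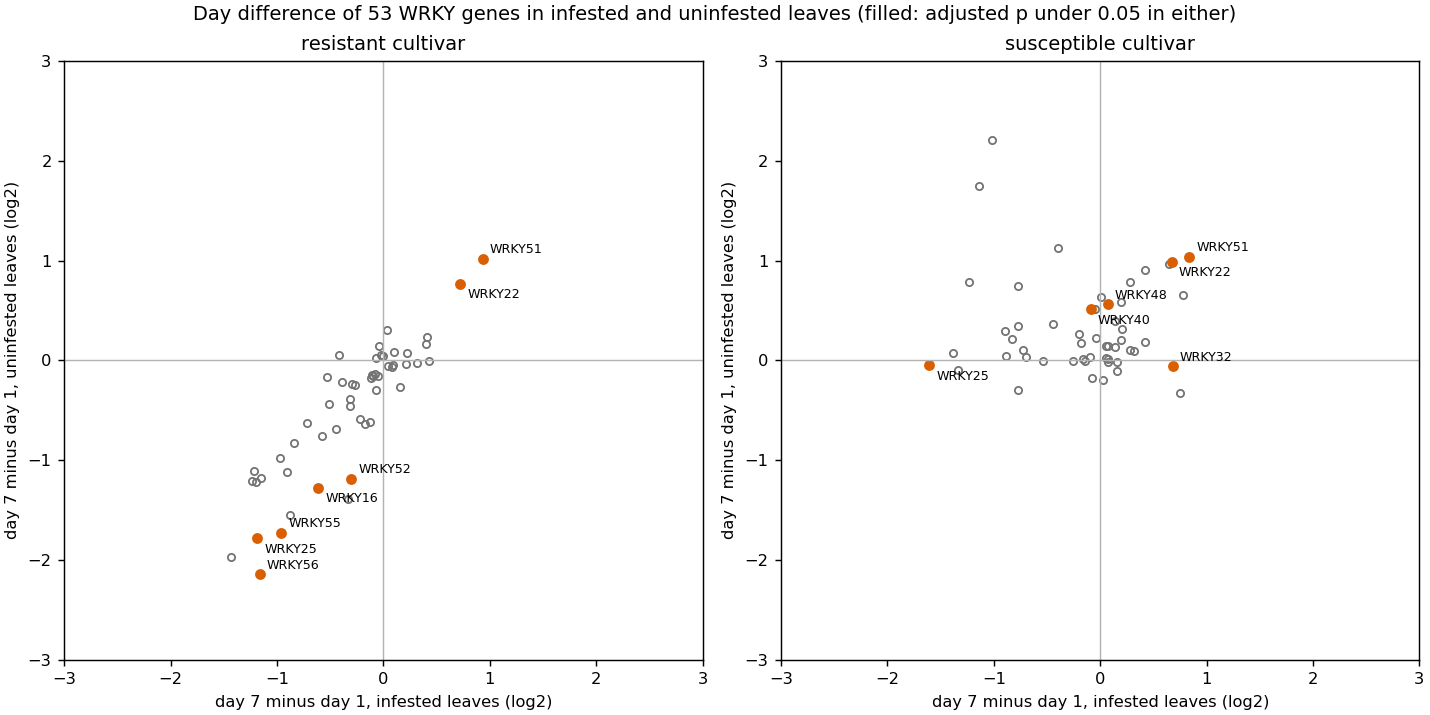
Day 7 minus day 1 difference (log2) of the 53 WRKY genes in infested leaves (x axis) and uninfested leaves (y axis) of the resistant (left) and susceptible (right) line; the axes share no array, and filled, named points were called on either. WRKY22 lies above 0 on all 4 axes, from 0.67 to 0.99.

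The same day comparison in infested leaves, added after the data had been seen, uses other arrays throughout. In the resistant line WRKY22 was higher at day 7 (8.77, 9.06 and 9.03, against 8.23, 7.99 and 8.48 at day 1; 0.72 ± 0.15, limma, adjusted p = 0.0389), 1 of 53 against 0.444% of all probe sets, and 0 were lower, against 0.359%. All 7 genes called in uninfested resistant leaves had the same sign in infested ones, as did 98.1% of all probe sets called there, and only WRKY22 was called in both. WRKY56 differed by -1.16 and WRKY25 by -1.19 there, neither called. In the susceptible line WRKY22 (0.67 ± 0.15, adjusted p = 0.0131) and WRKY32 (0.68 ± 0.19, adjusted p = 0.0346) were higher at day 7, 2 of 53 against 3.76%, and WRKY25 was lower (-1.61 ± 0.46, adjusted p = 0.0392), 1 of 53 against 2.93%. WRKY25 measured 5.87, 6.33 and 5.49 at day 7, against 7.93, 7.56 and 7.03 at day 1, without overlap. Its day 7 mean, 5.90, lay under the 25th percentile of all values (6.19), so the size of that difference is not exact. The WRKY25 call held in 2 of 6 fits that left out 1 array. WRKY32 was called on 1 of its 3 probe sets (from 0.05 to 0.68) and WRKY22 on 3 of 5. WRKY51, not called on its chosen probe set, was called on 3 of its 4 in the susceptible line (from 0.78 to 1.78) and on 1 of 4 in the resistant line. In infested susceptible leaves 11 of 44 seed markers were higher at day 7 and 2 of 7 leaf mesophyll markers lower, and their part was not tested. Of the 4 genes called in uninfested susceptible leaves 3 had the same sign in infested ones, against 83.2% of all probe sets called there, and WRKY22 was called in both. The resistant count fell to 0 without any 1 of infested day 1 replicates 1 and 2 and day 7 replicates 2 and 3, and was 2 without day 1 replicate 3 and 4 without day 7 replicate 1. The susceptible count was 0 without infested day 1 replicate 2 or day 7 replicate 1, 1 without day 1 replicate 1 or day 7 replicate 3, and 5 without day 7 replicate 2.

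WRKY22 was called in more comparisons than any other member, 8 of 16, and 33 of the 53 genes were called in none. The share of all probe sets called as often, or in none, was not counted. The comparisons also share arrays. Uninfested susceptible day 1 arrays entered the WRKY22 calls at day 1 for the susceptible aphid effect and the line difference in that effect. They also entered its uninfested line difference at day 1 and its uninfested susceptible day difference. From the highest group mean to the lowest WRKY22 measured 9.29 ± 0.11 in uninfested resistant leaves at day 7, 8.95 ± 0.16 in infested resistant leaves at day 7, 8.93 ± 0.10 in infested susceptible leaves at day 7, 8.59 ± 0.19 in uninfested susceptible leaves at day 7, 8.52 ± 0.24 in uninfested resistant leaves at day 1, 8.26 ± 0.23 in infested susceptible leaves at day 1, 8.23 ± 0.25 in infested resistant leaves at day 1 and 7.60 ± 0.11 in uninfested susceptible leaves at day 1 (log2, SD, n = 3 each). The neighbours at 8.95 and 8.93, at 8.59 and 8.52, and at 8.26 and 8.23 differ by less than their SD. The array that stands apart read 7.49, beside 7.70 and 7.62 on the others of its group. Its day difference in uninfested leaves of both lines, and its line difference in uninfested leaves at day 1, held in all 6 fits that left out 1 array each. The day difference was lost with no scaling in the resistant line (adjusted p = 0.0805) and with only that comparison's groups in the susceptible line (adjusted p = 0.0524). One of its 5 probe sets, the dimmest with a mean of 6.21, differed by -0.23 between the lines in uninfested leaves at day 1 and was not called there.

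The WRKY genes whose 8 group means ran most like those of WRKY22 were WRKY51 (Pearson r = 0.961 over 8 group means), WRKY44 (0.926), WRKY54 (0.910), WRKY36 (0.800) and WRKY15 (0.754). Among the other named genes of the array they were the lipoxygenase genes LOXB1 (0.985) and LOC547835 (0.981), SGT2 (0.983), LOC732543 (0.980) and SRC1 (0.979). Over the 24 single arrays r was 0.906 for WRKY51, 0.741 for WRKY44, 0.82 for WRKY54, 0.551 for WRKY36 and 0.569 for WRKY15. For the other named genes it ran from 0.862 for LOXB1 to 0.95 for SRC1. WRKY15 is one of the 5 dim genes below the 25th percentile in every group. All points share the same arrays and scaling, and the correlations are a description. WRKY54 measured 8.98 in uninfested resistant leaves at day 7 and 7.11 in uninfested susceptible leaves at day 1, its highest and lowest group means, as for WRKY22.

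Genes around the WRKY factors were read from the same fits. Of all probe sets 1.72% were called higher and 3.29% lower for 1 day of aphids in susceptible leaves. Between uninfested lines at day 1 these shares were 8.91% and 9.79%. For 7 days of aphids in susceptible leaves 2.84% were called in either direction. Of 2 MAP kinase cascade genes, MAPKK2 was higher in infested than uninfested susceptible leaves at day 1 (0.67 ± 0.19, limma, adjusted p = 0.0475) and in resistant than susceptible uninfested leaves at day 1 (0.61 ± 0.19, adjusted p = 0.0321), while MAPK2 differed by 0.08 and 0.06. Of 7 salicylate and pathogenesis-related genes none passed in susceptible leaves at day 1 (0 of 7, median 0.79). PR10, a ribonuclease-like defence protein, differed by 2.22 ± 0.75 (limma, adjusted p = 0.0786), and another gene named PR-10 by 2.04 ± 0.96 (adjusted p = 0.192). Their SDs in uninfested susceptible leaves at day 1 were 1.93 and 1.86. Between uninfested lines at day 1, 3 of these 7 were higher in resistant leaves, against 8.91% of all probe sets. The 3 were PR10 (2.38 ± 0.75, limma, adjusted p = 0.0321), PAD4, a lipase-like regulator of salicylate defence (1.16 ± 0.39, adjusted p = 0.0432), and LOC778136, a TGA-type bZIP gene (0.54 ± 0.16, adjusted p = 0.0281). PR-10 differed by 2.10 ± 0.96 between those lines and was not called (limma, adjusted p = 0.132). These comparisons rest on the same uninfested susceptible arrays as those of the WRKY genes. Of 3 chitinase and glucanase genes, the glucanase LOC547822 (SGlu2) fell with aphids in susceptible leaves at day 7 (-1.65 ± 0.44, adjusted p = 0.0461) and at day 1 (-2.09 ± 0.44, adjusted p = 0.0203), and CHIA1, a chitinase, and LOC547748 were higher in resistant uninfested leaves at day 1 (1.01 and 1.67).

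Other transcription factor families gave a scale for these counts. In susceptible leaves at day 1 the median aphid difference was 0.03 for 91 NAC and MYB genes (2 higher and 1 lower), 0.07 for 67 bZIP genes (2 higher and 3 lower) and 0.16 for 14 ERF and DREB genes (0 called), against the 0.56 of the WRKY genes (0.20 for the WRKY genes with the 3′ to 5′ covariate; the other families' values are from the fit without it). Over all probe sets 1.72% were called higher and 3.29% lower in that day 1 comparison. At day 7, 5 of 14 ERF and DREB genes were higher with aphids (median 0.50), as were 2 of 91 NAC and MYB genes and 1 of 67 bZIP genes. Of all 37593 soybean probe sets 731 were higher and 336 lower there. Between uninfested lines at day 1, 12 NAC and MYB genes were higher and 1 lower in resistant leaves, and 15 bZIP genes were higher and 6 lower, of the 91 and 67, against 8.91% higher and 9.79% lower over all probe sets. Of 15 jasmonate synthesis genes 0 were called with aphids in susceptible leaves at day 1 (median 0.56) and 4 were higher in resistant uninfested leaves at that time. No test of one list against another was made.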

How the data were processed

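Total RNA from trifoliate leaves was biotin-labelled and hybridised to 1-colour soybean arrays, per the labels. The deposited table holds log2 intensities of 37653 probe sets on 24 arrays, 37593 of them soybean; RMA, GCRMA and limma are named in the submitters' processing notes, with no role or version. On the linear scale 99.65% of the deposited log2 values were whole (tolerance 0.01), and the lowest and highest array medians were 7.0 and 8.04; the summary step is not stated in the labels or notes. No background estimate came with them, and no pair of columns was identical (0 pairs).

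Soybean probe sets were quantile-normalized, a choice made with earlier results of these data known, and 8 group means were fitted with limma 3.58.1 in R 4.3.3 over all 37593 (prior degrees of freedom 3.65, residual 16). Adjustment was by Benjamini-Hochberg within each of 12 comparisons, with a threshold of 0.05; 4 comparisons of infested leaves were added after the data were seen. Differences are log2 with the model's SE; "higher", "rose", "lower" and "fell" mark genes past the threshold wherever a test is named. The fit was checked on simulated data. Replicates are separate samples per the labels, the p-values measure the spread between them, which may be technical, and 3 arrays per group limit precision. In bulk leaf, fewer cells of a type and less RNA per cell cannot be told apart.

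Genes were named by the array's annotation, and all 53 WRKY genes were found in the RefSeq gene table (Glycine_max_v4.0). The members, gene lists and tests were chosen with earlier results of these data known. The text names genes called in any planned comparison, those with the largest differences or smallest p in each aphid, line and day comparison, and those with the highest and lowest levels or widest and narrowest ranges. Lists of VQ proteins and of abscisic acid genes found 0 members each. Of the chosen probe sets 6 carry a suffix that marks probes shared with other sequences. Genome coordinates and sequences were not used here. Alternatives were median centring, no scaling, normexp with an offset of 50, brighter probe sets only, trended variance, array weights, a replicate block, a comparison's own groups, the 3′ to 5′ covariate, the probe set of lowest mean, and leaving out each array.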

Additional observations from a re-analysis of the deposited data

Results flagged for a closer look

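WRKY22 stood out because its aphid effect differed between the lines at day 1 in a test of the difference itself. The effect was lower in resistant than in susceptible leaves by 0.94 on the log2 scale (-0.94 ± 0.22, limma, adjusted p = 0.0473): 3 of 3 infested susceptible arrays lay above all uninfested ones, while the infested and uninfested resistant arrays overlapped. The call was lost in 6 of 9 other settings and in 9 of 12 fits that left out 1 array (adjusted p up to 0.498), and 1 of the gene's 5 probe sets was called.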

How the results depend on the processing

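Counts of called WRKY genes depended on the setting and on single arrays. In this section they stand without the share of all probe sets called in the same fit, which may move with them. The swings are therefore not shown to be particular to WRKY genes. Of 806 values under other settings 717 kept their direction and their side of the threshold (or moved within the margin allowed), and of 648 values with 1 array left out 521 did. For the aphid effect in susceptible leaves at day 1 (3 called) the count was 0 with no scaling and with the 3′ to 5′ covariate, 1 with only that comparison's groups or the probe set of lowest mean, and 10 with array weights. At day 7 (0 called) it was 1 with median centring or the probe set of lowest mean, 6 with no scaling, 2 with array weights and 7 with the covariate. The difference between lines in the aphid effect at day 1 (1 called) was 0 with no scaling, brighter probe sets, trended variance, the replicate block, the covariate, its own groups or the probe set of lowest mean, and 2 with array weights; at day 7 (0 called) it was 1 with no scaling, the covariate or the probe set of lowest mean. The day difference in the aphid effect in susceptible leaves (0 called) was 3 with array weights. The line difference in uninfested leaves at day 1 (15 called) was 1 with the covariate; at day 7 (1 called) it was 2 with median centring or the covariate, 4 with array weights, and 0 with no scaling or its own groups. The day difference in uninfested susceptible leaves (4 called) was 2 with no scaling or the covariate, 0 with its own groups and 1 with the probe set of lowest mean; in uninfested resistant leaves (7 called) it was 12 with array weights and 11 with the covariate, and with no scaling the 8 called were all lower, none of them WRKY22 or WRKY51. In infested susceptible leaves (3 called) it was 14 with no scaling, 12 with array weights, 5 with the covariate and 10 with its own groups; in infested resistant leaves (1 called) it was 0 with no scaling or its own groups, 2 with array weights and 6 with the covariate. The cause was not tested. Without scaling the median of all probe sets itself shifted, from -0.27 for the line difference in infested leaves at day 7 to 0.48 for the day difference in infested susceptible leaves; for the aphid effect it was 0.26 in susceptible leaves at day 7, -0.13 there at day 1 and -0.15 in resistant leaves at day 1. The median over WRKY genes was 0.37 in susceptible leaves at day 7 and -0.14 in resistant leaves at day 1 in those fits, near the shift, and -0.10 in resistant leaves at day 1 with the probe set of lowest mean. WRKY15 turned to -0.003 with median centring in susceptible leaves at day 7, and WRKY28, at day 1 in the same line, ran from -0.404 to 0.117 with 1 array left out, above 0 only without uninfested replicate 2.

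With each array left out in turn, counts ran from 0 to 7 for the aphid effect in susceptible leaves at day 1 and from 0 to 1 at day 7, stayed at 0 in resistant leaves on both days, and ran from 0 to 4 at day 1 and from 0 to 1 at day 7 for the difference between lines in that effect; for its day difference they stayed at 0 in both lines. In uninfested leaves they ran from 2 to 15 (lines, day 1), from 0 to 2 (lines, day 7), from 1 to 4 (days, susceptible) and from 1 to 7 (days, resistant), and in infested leaves from 0 to 5 (days, susceptible) and from 0 to 4 (days, resistant), and stayed at 0 between the lines. Medians of the aphid effect ran from 0.35 to 0.67 and from 0.05 to 0.18 in susceptible leaves at day 1 and day 7, and from -0.10 to 0.09 and from -0.05 to 0.26 in resistant leaves. Correlations between same-numbered arrays of infested and uninfested leaves ran from -0.357 to 0.457. They were not set against those of differently numbered arrays, so whether the shared replicate numbers mark pairs was not tested. With the replicate block 3 genes were called for the day 1 aphid effect in susceptible leaves and 14 for the day 1 uninfested line difference. The day difference then had 4 calls in uninfested susceptible leaves and 9 in uninfested resistant leaves. Depth cannot be given for array values; 5 dim genes below the 25th percentile allow only weak statements.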
